A study of Mus musculus with 6 samples.

Results

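The genes described here are those of the insulin-like growth factor (IGF) axis: the ligands Igf1 and Igf2, the receptors Igf1r and Igf2r, and the binding proteins Igfbp2 to Igfbp7. They were chosen by name, with earlier results of these data known. They made up 10 of the 18193 genes tested and 28 of the 45037 probe sets that were not controls. A probe set is a group of short oligonucleotides on the array that read 1 target together. For each gene the result is that of its brightest probe set, by the mean of all 6 arrays, and the others are set beside it.

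The arrays measured RNA of mouse embryonic fibroblasts, cultured mesenchymal cells grown out of embryos, and the study asked what the Abl kinases do in gene expression. One group of 3 arrays was of wild-type cells. The other group of 3 was labelled as a c-abl/arg knockout, that is, of the genes Abl1 and Abl2, a pair of non-receptor tyrosine kinases. Both groups were C57BL/6, from embryos of 14 days of gestation with males and females pooled, and both were grown in the same medium with fetal bovine serum, which itself carries growth factors. Which exons were deleted, and whether the cells were primary or a line from 1 clone, is not given in the sources used here. Nor do the labels say whether each array had a culture of its own, so p-values here reflect only how far the arrays scatter, which may be technical. In RNA of a whole culture, fewer cells of a type and less RNA per cell cannot be told apart.

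IGF1 and IGF2 are secreted peptides that bind IGF1R, a receptor tyrosine kinase, which signals through insulin receptor substrates to the PI3 kinase and AKT pathway and promotes growth and survival. IGF2R does not signal in this way: it is the cation-independent mannose 6-phosphate receptor, which takes up and degrades IGF2 and sorts lysosomal enzymes. The IGF binding proteins are secreted proteins that hold IGFs in the extracellular space, and proteases such as the pappalysins release the ligand by cutting them.

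Promoter sequence is shown for 4 genes: Igf1, Igf1r and Igfbp4, which had the largest rise among ligands, receptors and binding proteins, and Igfbp6, which fell. Each run is the 250 bases before an annotated RefSeq start, on the build GRCm38.p6, written 5′ to 3′ in the direction of the gene. Igf1 lies at chr10:87860861-87861110, Igf1r at chr7:67952007-67952256, Igfbp4 at chr11:99040994-99041243 and Igfbp6 at chr15:102143936-102144185, all on the plus strand. Capitals mark matches, on either strand, to the TATA motif (TATAAA). They also mark the GC box motif, searched as GGGCGG. The last motif marked is the CCAAT box. No match in these runs overlaps another.
Igf1: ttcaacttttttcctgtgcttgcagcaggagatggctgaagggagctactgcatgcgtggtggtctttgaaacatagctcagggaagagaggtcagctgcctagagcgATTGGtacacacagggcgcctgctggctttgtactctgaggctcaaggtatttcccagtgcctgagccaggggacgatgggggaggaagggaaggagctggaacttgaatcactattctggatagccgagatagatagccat
Igf1r: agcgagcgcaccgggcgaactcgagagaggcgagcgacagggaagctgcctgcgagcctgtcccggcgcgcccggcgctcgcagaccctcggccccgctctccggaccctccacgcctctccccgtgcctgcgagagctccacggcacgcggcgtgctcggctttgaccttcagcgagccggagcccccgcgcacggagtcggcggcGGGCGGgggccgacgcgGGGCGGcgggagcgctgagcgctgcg
Igfbp4: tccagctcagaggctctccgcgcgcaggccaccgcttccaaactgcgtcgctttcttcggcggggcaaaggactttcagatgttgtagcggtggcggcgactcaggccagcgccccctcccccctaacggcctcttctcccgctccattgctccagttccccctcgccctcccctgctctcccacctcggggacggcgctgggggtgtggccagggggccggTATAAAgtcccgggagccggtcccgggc
Igfbp6: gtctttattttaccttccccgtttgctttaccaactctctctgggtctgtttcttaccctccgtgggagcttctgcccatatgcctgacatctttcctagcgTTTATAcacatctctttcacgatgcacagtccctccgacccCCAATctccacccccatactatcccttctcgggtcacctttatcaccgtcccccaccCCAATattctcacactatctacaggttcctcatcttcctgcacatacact
The Igf1r run was 77.6% G and C with 42 CpG dinucleotides and held GGGCGG at 43 and 26 bases before the start. The Igfbp4 run was 69.2% G and C with 22 CpGs and held TATAAA 28 bases before the start. The Igf1 and Igfbp6 runs were 52.8% and 49.6% G and C, with 5 and 7 CpGs. Igf1 had CCAAT on the opposite strand at 142 bases, and Igfbp6 had CCAAT at 107 and 50 bases and TATAAA on the opposite strand at 148 bases. All 10 genes matched RefSeq, with 14 windows of 250 bases. TATAAA occurred in 2 of them, GGGCGG in 6, CCAAT in 3 and the forkhead core TGTTTAC in 0. Among all 32851 windows of that length the shares were 12.4%, 32.7%, 33.8% and 3.17%. These are matches of letters within the windows, and nothing on the binding of a factor was measured here.

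Of the 10 genes, 6 rose in the arrays labelled knockout (Igf1, Igf2, Igf1r, Igfbp3, Igfbp4 and Igfbp7), 1 fell (Igfbp6) and 3 did not pass the test (Igf2r, Igfbp2 and Igfbp5). The test was limma on log2(signal + 16), called at an adjusted p under 0.05 over all genes, and every difference below is knockout minus wild type on that scale. With the same rule 24.2% of all genes rose and 35.5% fell. Changes of at least 2-fold, in either direction, were made by 6 of the 10 (5 of the risers and Igfbp6), against 15.8% of all genes. The median difference of the 10 genes was 1.04 and that of all genes -0.03. The 3 arrays of one group did not overlap with those of the other in 8 of the 10 genes, as in 64.7% of all genes. Signals under 50 in both groups, called dim here, were found for Igfbp2, Igfbp3 and Igfbp5, and for 8755 of the 18193 genes. The added 16 shrinks differences of such low signals, so their differences are understated. The 10 IGF genes held a smaller share of dim genes than the whole table. They were also chosen with earlier results of these data known, so the shares above are not a test of the axis.

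**Figure D1:**
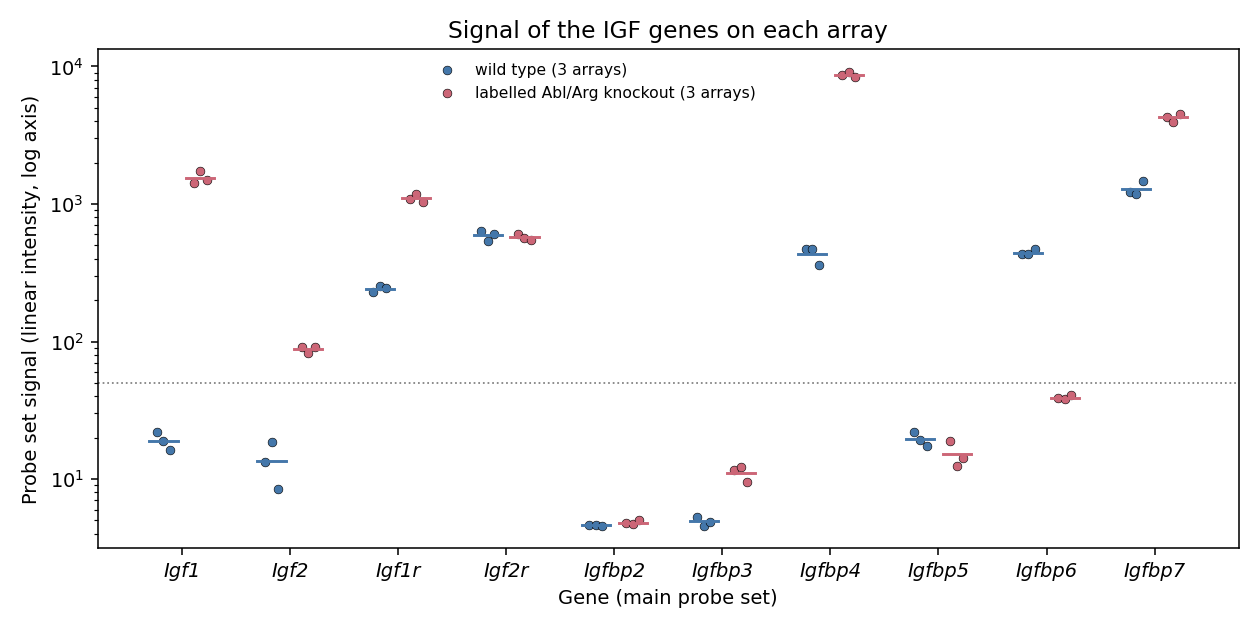
Signal of the main probe set of each IGF gene on the 3 wild-type and 3 knockout-labelled arrays, on a log axis of linear intensity. Points are arrays, short bars are group means, and the dotted line marks a signal of 50. Igf1, Igf2, Igf1r, Igfbp4 and Igfbp7 stand higher in all 3 knockout-labelled arrays, Igfbp6 stands lower in all 3, and Igf2r overlaps.

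Igf1, the main mediator of growth hormone action and a local growth factor in connective tissue, showed the largest difference of the axis. Its main probe set, 1434413_at, had signals of 21.8, 19.1 and 16.1 on the wild-type arrays and 1410.2, 1749 and 1503 on those labelled knockout. All 3 wild-type signals were dim and all 3 others bright, with no overlap. The means were 19.01 ± 2.86 and 1554 ± 175 (SD, n = 3 each), a difference of 5.48 ± 0.08 (SE; 95% interval 5.31 to 5.66; limma adjusted p = 5.39e-14). It was the 22nd highest difference of the 18193 genes. The 3 other Igf1 probe sets moved the same way, from 11.6 to 1220.5 for 1437401_at (difference 5.48), from 8.65 to 700.1 for 1419519_at (4.86) and from 24.9 to 786.5 for 1452014_a_at (4.30). The 4 probe sets thus gave differences between 4.30 and 5.48, and each passed the test over all probe sets.

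Igf2, the fetal growth factor that is expressed from the paternal allele, was low on both sides. The signals of 1448152_at were 13.3, 18.6 and 8.51 in wild type and 91.9, 82.8 and 91.7 in the knockout-labelled arrays. The groups did not overlap, and only the knockout-labelled arrays were above 50. Means were 13.5 ± 5.02 and 88.8 ± 5.19 (SD, n = 3 each), a difference of 1.84 ± 0.11 (SE; 95% interval 1.60 to 2.09; limma adjusted p = 1.44e-08). The other Igf2 probe set, 1415931_at, is annotated to the same sequence record and was near the floor, with means of 3.19 and 3.86. Its difference of 0.05 passed narrowly over all probe sets (limma adjusted p = 0.042). The size of the Igf2 rise therefore rests on 1 probe set: it was 0.95 with both averaged, and 0.98 with 64 added to the signal in place of 16.

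Igf1r, the signalling receptor for both ligands, rose as well. Signals of 1452982_at were 229.6, 251.3 and 245.3 in wild type and 1089, 1179.7 and 1034 in the knockout-labelled arrays. Every knockout-labelled array was above every wild-type array. The means of 242.1 ± 11.2 and 1101 ± 73.5 (SD, n = 3 each) had a ratio of 4.55, and the difference was 2.11 ± 0.05 (SE; 95% interval 2.0 to 2.2; limma adjusted p = 4.77e-12). All 5 Igf1r probe sets were called higher. The difference was 2.03 for 1428967_at (136.9 to 609.4), which shares its target record with the main one, and 1.62 for 1426565_at (42.9 to 165.3). The remaining pair were dim: 1446303_at went from 8.60 to 23.1 (difference 0.67) and 1452108_at from 18.0 to 30.3 (0.43). The average over the 5 probe sets was 1.37.

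Igf2r, the clearance receptor for IGF2, did not pass the test. Signals of 1424112_at were 631.8, 536.2 and 606.7 in wild type and 603.7, 562.1 and 545.6 in the knockout-labelled arrays, and the groups overlapped. Means were 591.6 ± 49.6 and 570.5 ± 29.9 (SD, n = 3 each), a difference of -0.05 ± 0.06 (SE; 95% interval -0.18 to 0.08; limma adjusted p = 0.516). The second Igf2r probe set, 1424111_at, had means of 179.8 and 183.4 and a difference of 0.03 (limma adjusted p = 0.731 over all probe sets). The sign of the Igf2r difference was set by the scaling of the arrays. It was 0.46 with the arrays scaled on the poly-A spike controls (limma adjusted p = 1.81e-05) and -0.31 on the hybridization spike controls (limma adjusted p = 0.00175).

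Igfbp4 had the largest rise of the binding proteins. Its protein binds both IGFs and is a substrate of the protease PAPP-A. The main probe set, 1437405_a_at, had signals of 468.5, 467.4 and 359.0 in wild type and 8646, 9085 and 8340.0 in the knockout-labelled arrays, far apart and with no overlap. Means were 431.6 ± 62.9 and 8691 ± 375 (SD, n = 3 each), with a ratio of 20.1 and a difference of 4.29 ± 0.08 (SE; 95% interval 4.11 to 4.47; limma adjusted p = 4.68e-13). The difference ranked 74th from the highest among all genes. All 6 Igfbp4 probe sets rose. The others gave 5.19 for 1423756_s_at, 5.07 for 1421992_a_at, 4.43 for both 1423757_x_at and 1421991_a_at, and 4.04 for 1437406_x_at. Each of the 6 has a suffix by which Affymetrix marks probe sets that can match several transcripts, so no value without such probe sets was possible for Igfbp4.

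Igfbp6, whose protein prefers IGF2 over IGF1, was the one gene of the axis that fell. Signals of its single probe set, 1417933_at, were 429.6, 429.2 and 467.1 in wild type and 38.6, 38.2 and 40.6 in the knockout-labelled arrays. The groups were far apart, and arrays of each group lay close together. The mean went from 442.0 ± 21.8 to 39.1 ± 1.29 (SD, n = 3 each), which is 11.3 times lower, with a difference of -3.05 ± 0.06 (SE; 95% interval -3.18 to -2.93; limma adjusted p = 3.99e-13). It was the 83rd lowest difference of all genes, and no second probe set was there to set beside it.

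Igfbp7, a secreted protein of low affinity for IGFs that lies in the extracellular matrix, rose from an already bright signal. Wild-type arrays of 1423584_at gave 1217, 1184 and 1477, and those labelled knockout 4293, 3969 and 4521. The lowest knockout-labelled array was above the highest wild-type one. Means of 1293 ± 161 and 4261 ± 277 (SD, n = 3 each) had a ratio of 3.30, and the difference was 1.71 ± 0.08 (SE; 95% interval 1.55 to 1.88; limma adjusted p = 6.62e-10). Of its other probe sets, 1423585_at rose from 24.4 to 104.7 (difference 1.58), and 1437804_at had 42.9 and 39.7 (difference -0.08; limma adjusted p = 0.504 over all probe sets). The average of the 3 was 1.07.

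The remaining binding proteins were dim. Igfbp3, in serum the main carrier of IGFs, had signals of 5.33, 4.59 and 4.87 in wild type and 11.7, 12.2 and 9.46 in the knockout-labelled arrays (1458268_s_at). These did not overlap but all lay near the floor. The difference was 0.37 ± 0.04 (SE; 95% interval 0.28 to 0.46; limma adjusted p = 3.71e-06), and 0.32 for the other probe set, 1423062_at. Its size depends on the added value, with 1.03 when 1 was added to the signal and 0.12 when 64 was added.

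Igfbp5, a binding protein that attaches to extracellular matrix, had signals of 21.9, 19.2 and 17.3 in wild type and 18.8, 12.4 and 14.2 in the knockout-labelled arrays (1422313_a_at), with an overlap of 1 array. The difference of -0.19 ± 0.08 (SE; 95% interval -0.36 to -0.02) lay at the threshold (limma adjusted p = 0.051). The second probe set, 1452114_s_at, went the other way, from 4.05 to 14.4 (difference 0.60; limma adjusted p = 2.07e-07 over all probe sets). With both averaged the difference was 0.21 (limma adjusted p = 0.0117), so Igfbp5 has no settled direction here. Igfbp2, the neighbour of Igfbp5 on chromosome 1 with 0 coding genes between them, had signals of 4.61, 4.60 and 4.58 against 4.76, 4.68 and 5.0. Its difference was 0.02 ± 0.02 (SE; 95% interval -0.03 to 0.06; limma adjusted p = 0.58).

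Over the 28 probe sets of the 10 genes, 22 were called higher, 1 lower and 5 neither, against 24.9% higher and 27.2% lower of all 45037 probe sets. Probe sets of 1 gene share its RNA and are not independent. They gave the same call throughout for Igf1, Igf2, Igf1r, Igf2r, Igfbp3 and Igfbp4. Of these, the second Igf2 probe set, which passed narrowly, and those of Igfbp3 were near the floor. Calls differed between the probe sets of Igfbp5 and of Igfbp7, and Igfbp2 and Igfbp6 had 1 probe set each.

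**Figure D2:**
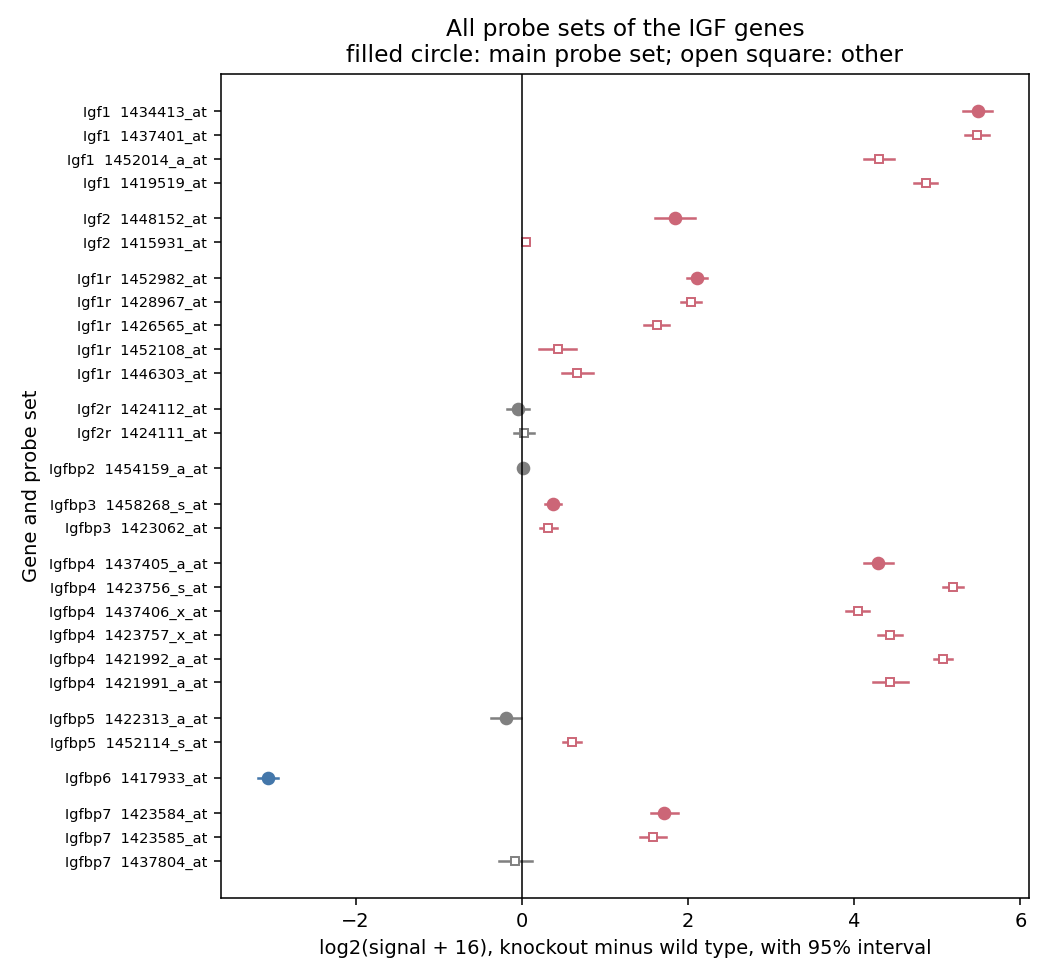
Difference on the log2(signal + 16) scale, knockout minus wild type, with its 95% interval, for all 28 probe sets of the IGF genes from the fit over all probe sets. Filled circles are main probe sets and open squares the others; red is called higher, blue lower and grey neither. All 4 Igf1, 5 Igf1r and 6 Igfbp4 probe sets lie to the right of 0, and the Igfbp6 probe set to the left.

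Pairs of members were also compared within each array, although the level of one probe set cannot be set against another's. The added 16 keeps the scaling of the arrays from cancelling fully in such pairs. Such pairs, 3 in all, were formed after the values had been seen. The log2 value of Igf1 minus that of Igf2 was 0.37, 0.02 and 0.39 in wild type and 3.72, 4.16 and 3.82 in the knockout-labelled arrays. Igf1 therefore moved further than Igf2, by 3.64. Igf1r minus Igf2r was -1.40, -1.05 and -1.25 in wild type and 0.83, 1.05 and 0.90 in the knockout-labelled arrays, a shift of 2.16. Igfbp4 minus Igfbp6 was 0.12, 0.12 and -0.37 against 7.31, 7.39 and 7.21, a shift of 7.35. The groups did not overlap in any of the 3 pairs. Each had a two-sided exact permutation p of 0.1, adjusted p = 0.1 over the 3, the smallest that 3 arrays against 3 can give. Because the pairs were chosen from these same values, neither the lack of overlap nor this p adds support.

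Other genes of the pathway were counted in 7 lists of 90 genes, 84 of them measured. Of the 84, 35 rose, 24 fell and 25 did not pass, with a median difference of 0.02 and 21 dim genes. Among all 18193 genes tested, 24.2% rose and 35.5% fell, with a median of -0.03 and 8755 dim genes. These values are the background for the counts of each list below. The balance of rises and falls depends on the scaling: 40.6% of all calls were rises here, 63.5% with arrays centred on their median, 78.8% on the poly-A controls and 22.1% on the hybridization controls. The poly-A scaling moved the median difference of all genes from -0.03 to 0.12, and that on hybridization controls moved it to -0.12.

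Of 12 genes that set how much IGF is available (proteases of the binding proteins, their inhibitors and carriers), 5 rose, 1 fell and 6 did not pass, with a median of 0.03 and 8 dim genes. Stc2, a stanniocalcin that inhibits the pappalysins, had signals of 3.40, 3.49 and 4.63 in wild type and 618.8, 614.5 and 610.7 in the knockout-labelled arrays, a difference of 4.99 (limma adjusted p = 1.52e-14). Its 2 other probe sets rose by 3.07 and 2.31. Stc1, the related inhibitor, rose from 8.07 to 223.5 (difference 3.32), while its second probe set stayed near the floor with a difference of 0.06. Pappa2, a pappalysin that cuts IGFBP5, rose from 10.9 to 143.0 (difference 2.56) on its only probe set. Htra1, a secreted serine protease reported to cut IGFBPs, rose from 1184 to 4201 (difference 1.81), and by 1.93 on its other probe set. Pappa, which encodes PAPP-A, was named after its values were seen: it was dim, with means of 7.72 and 8.58 (difference 0.05; limma adjusted p = 0.331). Igfbp1, the neighbour of Igfbp3 with 0 coding genes between them, was also named afterwards and near the floor, at 3.12 and 2.75.

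The list of IGF mRNA control and imprinted partners had 5 of its 7 genes measured. Of these, 1 rose, 1 fell and 3 did not pass, with a median of -0.07. H19 and Igf2bp2 were not analysed here. Airn, the RNA antisense to Igf2r that overlaps it and is imprinted with it, rose from 5.80 to 44.3 (difference 1.47; limma adjusted p = 5.04e-10). This probe set was dim, as were its 4 others, which had differences of 0.04 to 0.24, and the average of all was 0.38. Which strand these probes read was not checked, so Airn and Igf2r signal cannot be told apart where they overlap. Igf2bp3, an RNA-binding protein of Igf2 mRNA, fell from 204.6 to 145.5 (difference -0.45; limma adjusted p = 1.08e-05), but the difference was 0.03 on poly-A scaling. Igf2bp1, of the same family, had 153.9 and 151.7 (difference -0.02; limma adjusted p = 0.801), while 2 of its other probe sets were called higher, at 0.74 and 0.37. Ins2, which neighbours Igf2, and Grb10, an imprinted adaptor that dampens the receptor, were dim, with differences of -0.11 and -0.07 that did not pass.

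Upstream of Igf1, the growth hormone and STAT5 list had 9 genes, of which 5 rose and 4 did not pass, with a median of 0.18. Ghr, the growth hormone receptor, had signals of 308.7, 332.0 and 315.0 in wild type and 1666, 1734 and 1799 in the knockout-labelled arrays. With no overlap, the difference was 2.39 (limma adjusted p = 3.14e-13), and its other probe sets rose by 1.20 and 1.37. Jak2 and Stat5b, which did not pass, were named after their values were seen. Each had a second probe set called lower, from 126.0 to 71.9 for Jak2 (difference -0.70) and from 33.9 to 20.6 for Stat5b (-0.45). Other probe sets of Socs3, and 1446085_at of Socs2 near the floor, were called higher.

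Downstream, of 18 insulin receptors, substrates and adaptors, 7 rose, 5 fell and 6 did not pass, with a median of 0.04. Irs1, the docking protein phosphorylated by IGF1R, had signals of 261.3, 244.5 and 239.3 in wild type and 1875, 1912 and 1839.9 in the knockout-labelled arrays. The difference was 2.84 on its 1 probe set (limma adjusted p = 6.23e-14). Grb14, an adaptor that inhibits the insulin receptor, rose from 5.86 to 305.2 (difference 3.88), while its second probe set was near the floor with 0.06. Insr, the insulin receptor that can pair with IGF1R, was named after its values were seen. It had 163.7 and 181.8 (difference 0.14; limma adjusted p = 0.0489) and passed in 9 of 20 other settings.

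Of 29 measured genes of 33 in the PI3 kinase, AKT, FOXO and mTOR relay, 11 rose, 14 fell and 4 did not pass, with a median of -0.08. Pik3r1, a regulatory subunit of PI3 kinase, rose from 179.4 to 1265 (difference 2.71), and its 3 other probe sets rose by up to 2.54. Deptor, an inhibitor of mTOR, rose from 52.4 to 287.2 (difference 2.15). Foxo3, a transcription factor that AKT keeps out of the nucleus, rose from 295.7 to 879.2 (difference 1.52). Eif4ebp1, a repressor of translation that mTOR inactivates, fell from 3021 to 724.2 (difference -2.04; limma adjusted p = 2.77e-13), and by 2.02 on the next brightest probe set.

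IGF2R shares its sorting work with the other mannose 6-phosphate receptor, M6pr, which had 733.4 and 770.7 (difference 0.07; limma adjusted p = 0.154). The other M6pr probe set, 1416386_a_at, rose from 231.3 to 303.3 (difference 0.37, limma adjusted p = 0.000111 over all probe sets). Of the 7 genes of mannose 6-phosphate sorting, 4 rose, 2 fell and M6pr did not pass, with a median of 0.56. The genes that make the mannose 6-phosphate tag all rose, Gnptab by 1.04, Gnptg by 0.96 and Nagpa by 0.66. Of the adaptors that carry the receptors from the Golgi, Gga3 rose by 0.56, and Gga1 and Gga2 fell by 0.38 and 0.70. The Gga1 difference turned to 0.09 on poly-A scaling, and that of Gga2 was -0.20 there and no longer passed (limma adjusted p = 0.0521). Among 4 other receptors reported for IGFBPs, with a median of 0.10, Lrp1, a large endocytic receptor, rose from 130.2 to 726.9 (difference 2.35). Tmem219, reported as a receptor of IGFBP3, fell from 221.5 to 51.7 (difference -1.81). Cd93 rose by 0.20 near the floor, and Ptprb, with a difference of -0.01, did not pass.

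**Figure D3:**
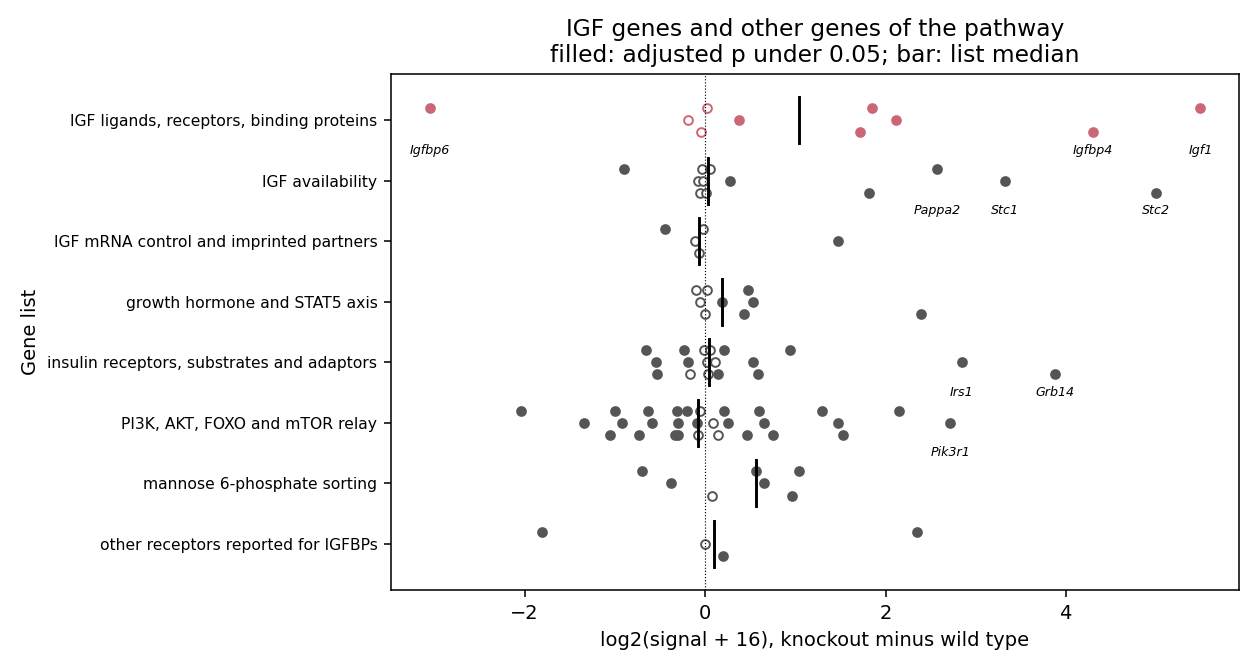
Difference on the log2(signal + 16) scale, knockout minus wild type, for the IGF genes (top) and the measured genes of the 7 pathway lists. Each point is a gene, filled where its limma adjusted p was under 0.05, and the vertical bar is the list's median: 1.04 for the IGF genes and between -0.08 and 0.56 for the others.

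The labels could not be checked by the targeted genes. Abl1 had means of 184.8 and 169.8 (difference -0.11; limma adjusted p = 0.0929) and Abl2 had 256.1 and 254.1 (-0.01; limma adjusted p = 0.874). Scaling on poly-A controls turned both to rises, of 0.36 and 0.48, and scaling on hybridization controls gave falls, of -0.35 and -0.26. The other Abl1 probe sets, 1444134_at and 1441291_at, were dim and called higher, with differences of 0.28 and 0.21. Those of Abl2 did not pass. Where the probes lie against the deleted part was not known here, so directions above are those of arrays labelled knockout. Array medians ran from 13.4 to 13.6 in wild type and from 14.4 to 14.7 in the knockout-labelled arrays. Mean log2 signals of the poly-A controls were 7.45 in wild type and 6.93 in the other group (exact permutation p = 0.1). For the hybridization controls they were 10.30 and 10.56 (exact permutation p = 0.1). The log2 ratio of 3′ to 5′ actin control signal in the 2 groups was 0.47 ± 0.03 (wild type) and 0.36 ± 0.01 (SD, n = 3 each; exact permutation p = 0.1). That of the GAPDH control was -0.15 ± 0.04 (wild type) and -0.17 ± 0.04 (SD, n = 3 each, exact permutation p = 0.6). Bright genes on chromosome 10, which holds Igf1, had a median difference 0.31 above that of all bright genes. On chromosomes 7 and 11, which hold Igf1r and Igfbp4, that median stood at -0.16 and 0.22.

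Markers of fibroblasts reached a signal of 50 for 10 of 14 genes in wild type and for 9 of 14 in the other group, with summed signals of 12430.0 to 13157 and 19884 to 20850.5. Within this list 8 rose and 2 fell, where 24.2% of all genes rose and 35.5% fell. Pdgfra went from 9.99 to 1789, Col1a1 from 412.8 to 1478 and Fn1 from 1384 to 4369. The genes that fell were Col1a2, from 2284 to 9.71, and Col3a1, from 1934 to 14.9. Thy1, Lum and Fap were near the floor in both groups. Summed signals of 5 measured adipocyte markers were 57.3 to 61.4 and 772.1 to 776.7, and 4 of the 5 rose. Most of the second sum was Fabp4, at 15.1 in wild type and 690.4 in the other group. Cebpa went from 24.2 to 51.8, Pparg (9.30 to 14.1) and Lpl (8.53 to 15.2) were dim, and Adipoq was near the floor. For 10 macrophage and leukocyte markers the sums were 183.0 to 200.4 and 555.5 to 593.6. Cd14, Lyz2 and Cd68 rose, while Ptprc, Tyrobp, Adgre1 and Itgam, which define these cells, were near the floor in every array. Csf1r, of the same list, was dim but above the floor, with means of 34.5 and 30.3, and did not pass. For 5 neural markers the sums were 136.6 to 150.0 and 476.6 to 555.7, with Sox2 and Nes higher and Tubb3 lower (52.9 to 8.14), and for 4 cartilage and bone markers 71.9 to 75.2 and 157.2 to 181.0, with Sox9 higher. Endothelial, epithelial and hepatoblast markers reached 50 for 0 genes in either group, and myoblast markers for 1 of 6 in wild type and 0 in the other group. Of these markers none rose, and 2 epithelial, 1 hepatoblast and 2 myoblast genes fell. These shifts in markers moved with the IGF genes, and their part in the IGF results was not tested.

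**Figure D4:**
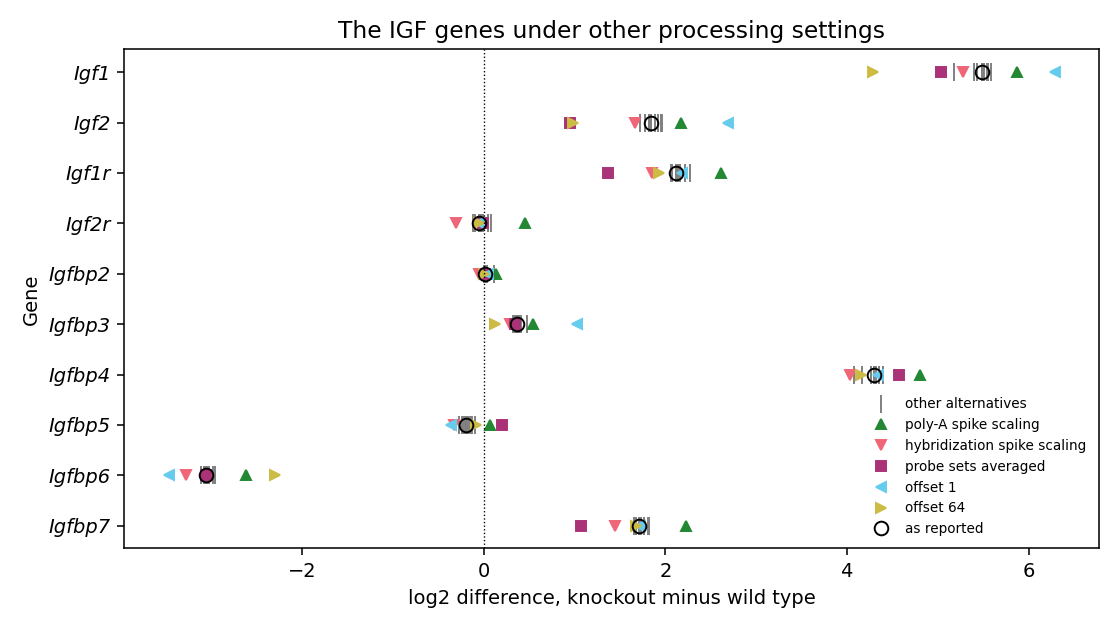
Difference of each IGF gene, knockout minus wild type on the log2 scale, as reported (open circles) and under the other processing settings. Igf1, Igf2, Igf1r, Igfbp4 and Igfbp7 stay above 0 and Igfbp6 below 0 in every setting, while Igf2r runs from -0.31 to 0.46 and Igfbp5 from -0.36 to 0.21.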

How the data were processed

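The deposited table holds linear intensities. The authors used MAS5, per the submitters' processing notes, which give neither its version nor its scaling. Biotin-labelled cRNA was made from 6 µg of total RNA, per the labels' protocols. Groups and replicate numbers came from the sample titles, and 0 columns were left unmatched.

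The table held 45101 probe sets, 64 of them controls. Platform annotation gave 1 symbol to 34945, several to 932 and none to 9160. Symbols were updated through RefSeq (GRCm38.p6), matching 34741. From the deposited intensities log2(signal + 16) was computed, and each gene took its probe set with the highest mean, among those with 1 symbol. No detection call was used. Differences were tested two-sided with limma 3.58.1 in R 4.3.3 (lmFit, eBayes with trend), with Benjamini-Hochberg adjustment over all genes or all probe sets; a call is an adjusted p under 0.05. The code was tested on simulated data. Single array measures had exact permutation tests. The number of arrays limits the precision. Promoter windows were the 250 bases before each RefSeq start, searched on both strands. Figures were drawn with matplotlib 3.10.9.

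The genes and lists were chosen with earlier results of these data known. Named are all IGF genes and probe sets, Abl1 and Abl2, up to 4 genes per pathway list with the largest differences of at least 2-fold past the test, and every member of lists of 7 or fewer. Cell type markers are given as values. Alternatives were offsets of 1 and 64, quantile, median and spike control scaling, leaving out dim genes or probe sets with the suffix x, s or a, averaging probe sets, eBayes without trend or robust, array weights, replicate number as a block, centring bright genes by chromosome, and leaving out each array. Their use on genes outside the axis was added after seeing the data.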

Additional observations from a re-analysis of the deposited data

How the results depend on the processing

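The 6 IGF genes that rose and Igfbp6, which fell, kept their calls under each of the 20 alternatives in which they were tested. Igfbp3 was not tested with dim genes left out, nor Igfbp4 without probe sets of suffix x, s or a. The count of IGF genes that rose ran from 5 to 8. It was 8 on poly-A scaling (with Igf2r and Igfbp2), 7 with median centring (with Igfbp2) and 7 with probe sets averaged (with Igfbp5). The count that fell, 1 as reported, was 3 on hybridization spike scaling (with Igf2r and Igfbp5), and 2 (with Igfbp5) with robust eBayes, array weights and the replicate block, where Igfbp5 had an adjusted p of 0.0185 (limma). Leaving out 1 array gave 1 to 2, with 2 without wild-type replicate 3 or knockout replicate 1. Same-numbered arrays correlated at 0.04, 0.11 and 0.16 in their deviations from the group means across genes. Each array correlated best with its own number, which comes from the data and not from the design. Deviations from a mean of 3 arrays are tied to each other, so this match cannot show pairing. The first pair was also weak, and the numbers were not used as pairs in the reported fit. In the pathway lists 58 genes rose and 8 fell on poly-A scaling, and 40 fell on hybridization scaling.

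Among differences that passed the test either as reported or under the alternative, directions turned on poly-A scaling for Igf2r (0.46), Abl1 (0.36), Abl2 (0.48), Igf2bp1 (0.45), Igf2bp3 (0.025), Gga1 (0.093) and Ptprb (0.12); on hybridization scaling for M6pr (-0.19) and Insr (-0.10); on median centring for Ptprb (0.095) and Igfbp1 (0.075); and with probe sets averaged for Igfbp5 (0.21), Abl1 (0.13) and Igf2bp1 (0.35). Differences that passed in neither also turned: on poly-A scaling for Igfbp5 (0.075), Ins2 (0.15), Grb10 (0.085) and Igfbp1 (0.051), on hybridization scaling for Igfbp2 (-0.045) and Pappa (-0.038), and on median centring for Igf2r (0.054), Abl2 (0.093), Igf2bp1 (0.081) and Grb10 (0.028). Centring chromosomes turned Igf2r (0.080) and Abl2 (0.069), quantile normalization turned Abl2 (0.068), Igf2bp1 (0.068) and Ptprb (0.013), and leaving out 1 array turned Abl2, Igf2bp1 or Ptprb by at most 0.034 above 0. Averaging also gave 1.69 for Stc1, 1.97 for Grb14, 1.32 for Deptor, 0.99 for Foxo3, 0.29 for Nagpa and -0.76 for Tmem219, and an offset of 64 gave 3.32 for Stc2, 1.46 for Pappa2 and 0.60 for Gnptg. The cause was not tested. Signals near the floor limit what can be said of Igfbp2, Igfbp3 and Igfbp5.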
